A study of Homo sapiens with 12 samples.

Results

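The 9 genes PAX8, PAX2, LHX1, SLC4A4, SLC3A1, GGT1, ANPEP, DPP4 and MME mark the identity and the transport work of the kidney's proximal tubule. Their values were taken from every probe set that the platform annotation assigns to exactly 1 of these symbols, which gave 28 probe sets for the 9 genes, among 19775 genes named this way on the array. The cells were HK-2, 1 immortalized line of human proximal tubule epithelial cells, grown in a medium with epidermal growth factor, hydrocortisone, insulin and transferrin. They were treated near confluence with Ota, the labels' short name for the test compound, at the dose labelled high, or with vehicle, for 24 h or 72 h, in work aimed at expression signatures of toxicity. The 4 groups (Ota 24 h, control 24 h, Ota 72 h and control 72 h) held 3 Affymetrix arrays each, 12 in all. The labels give neither the full name of Ota nor the amount, and name the arrays of each group as biological replicates without saying whether the cultures were separate. The p-values therefore measure the spread between these samples, and the number of arrays limits the precision.

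PAX8 and PAX2 are paired-box transcription factors that direct kidney development, and PAX8 stays on in mature tubule epithelium. LHX1 is a LIM-homeodomain factor of the early nephron. The proximal tubule reclaims bicarbonate through the sodium-bicarbonate cotransporter SLC4A4 on its basolateral side and cystine and basic amino acids through a transporter that contains SLC3A1, and its brush border carries the enzymes GGT1, ANPEP, DPP4 and MME.

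Each value is the deposited GCRMA signal of a probe set on the log2 scale, and a difference of 1 is a doubling of signal. A gene was tested where a probe set exceeded 4 on at least 3 of the 12 arrays, and the probe set with the highest mean stood for the gene, which left 10729 genes. Arrays of a group correlated at 0.954 to 0.994 over these genes. Several array-wide measures moved with the treatment, and their part in the results below was not tested. The mean of 24 poly-A spike-in probe sets, RNA added in fixed amounts before labelling, was higher in Ota arrays by 1.85 at 24 h and by 0.89 at 72 h, and the median of the tested genes was lower by 0.56 and by 0.28 (exact permutation test, two-sided, p = 0.1 each, the smallest that 3 against 3 arrays allow). The actin signal of the 3' end minus that of the 5' end was 1.97 ± 0.33 (SD, n = 3) with Ota and 1.39 ± 0.15 (n = 3) without it at 72 h (p = 0.1 in the same exact permutation test), but differed by 0.046 at 24 h (p = 0.9). The same measure of GAPDH differed by 0.031 at 24 h (exact p = 0.3) and 0.033 at 72 h (exact p = 0.7). Centring each array on its median moves the differences of all genes by 0.56 at 24 h and 0.28 at 72 h, and scaling to the spike-ins moves them by -1.85 and -0.89. At 24 h, 4343 genes were lower and 2236 higher with Ota as deposited, 3723 and 3057 after quantile normalization, 2863 and 4659 after centring, and 10035 and 152 after spike-in scaling. The corresponding counts at 72 h were 3780 and 2665 as deposited, 2984 and 3808 after centring, and 6718 and 555 after spike-in scaling. Of the marker genes of other cell types, 0 of 8 endothelial and 0 of 6 leukocyte genes exceeded 4 on 3 arrays, against 3 of 6 podocyte, 1 of 7 loop and distal tubule, 2 of 10 collecting duct and 4 of 8 fibroblast genes. The mean log2 level of the 8 fibroblast markers was 5.58 to 5.89 in Ota arrays and 5.63 to 5.72 in controls at 24 h, and 5.25 to 5.44 against 5.08 to 5.19 at 72 h. The podocyte, loop and collecting duct means stayed within 4.62 to 5.08, 3.01 to 3.66 and 3.55 to 3.86 over all arrays. All 9 genes of the epithelial marker list were measured, among them keratins, cadherins and vimentin (VIM), which is also a mesenchymal marker. Their mean log2 level was 9.94 to 10.50 with Ota and 10.45 to 10.83 without it at 24 h, and 9.37 to 9.58 against 10.66 to 10.82 at 72 h. In bulk samples such as these, fewer cells of a type and less RNA per cell cannot be told apart.

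The signal of these genes in HK-2 cells was uneven. PAX2, ANPEP and MME stayed under a log2 value of 4 on all 12 arrays at each of their probe sets, 2, 3 and 2 in number. Of the 28 probe sets 9 stayed under 4 throughout, these 7 and both minor probe sets of SLC3A1. PAX8, SLC4A4, SLC3A1 and DPP4 exceeded 4 on all 12 arrays at the probe set that stood for them. LHX1 and GGT1 lay at the edge of the filter: LHX1 exceeded 4 on 5 of 12 arrays and was tested, and GGT1 did so on 2 and was not. LHX1 passed the filter only through its Ota arrays, so it had to differ between the groups, and its call supports nothing further. Gene-level tests were thus possible for 5 of the 9 genes.

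**Figure D1:**
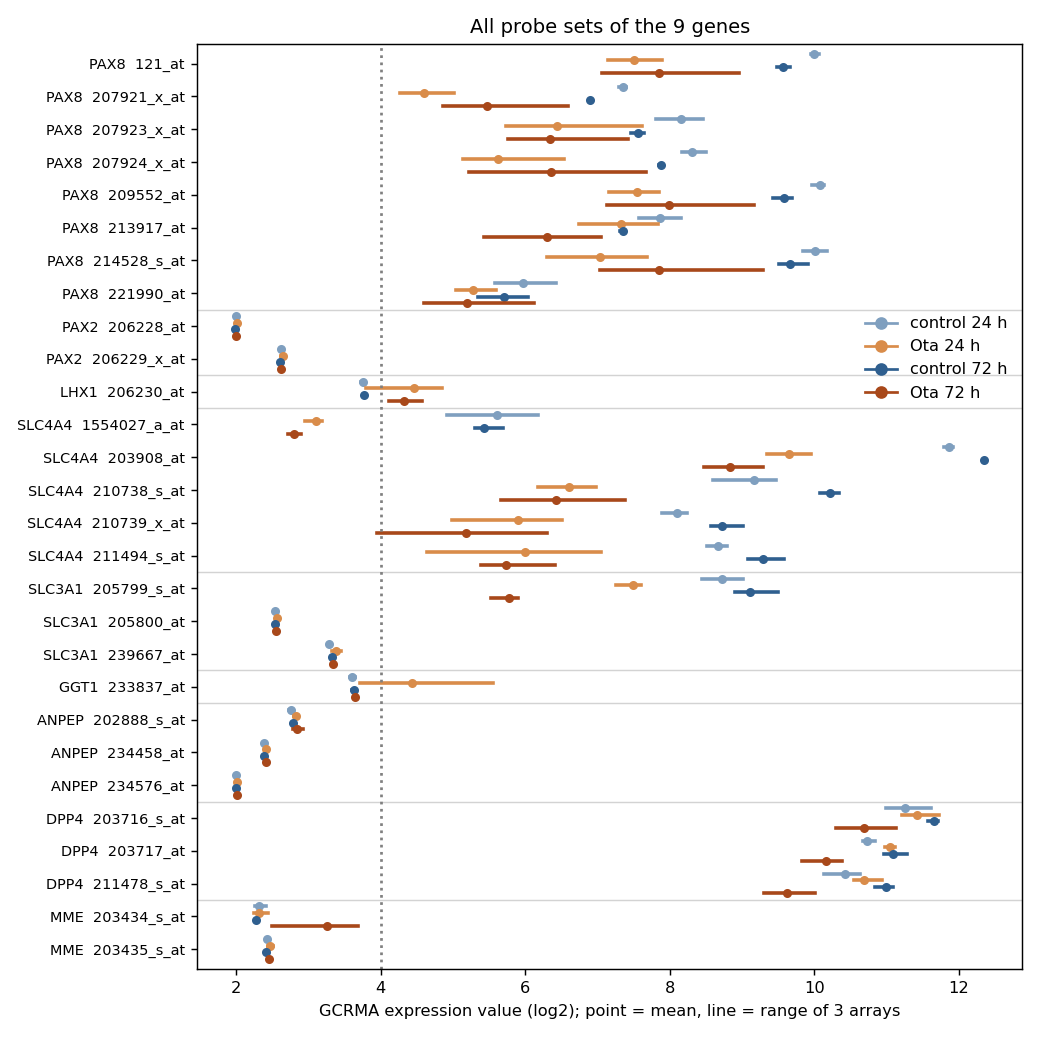
Log2 GCRMA value (horizontal axis) of all 28 probe sets of the 9 genes, 1 row each; a point is the mean and a line the range of the 3 arrays of a group, and the dotted line marks a value of 4. PAX2, ANPEP and MME lie left of the dotted line in every group, and the probe sets of PAX8 and SLC4A4 lie further left in the Ota groups than in the controls of the same time.

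PAX8 fell with Ota at both times. At probe set 209552_at its log2 values were 10.13, 9.97 and 10.14 on the control arrays and 7.16, 7.62 and 7.85 on the Ota arrays at 24 h. Every Ota array lay more than a 4-fold signal below every control. The groups of a time did not overlap for 65.7% of all tested genes at 24 h and for 73.7% at 72 h, so separation alone was common on these arrays. The difference at 24 h was -2.53 ± 0.40 (SE), a 5.79-fold lower signal, with a Benjamini-Hochberg adjusted p of 0.00017 in the limma fit over all genes. At 72 h the values were 9.69, 9.61 and 9.43 in controls and 7.69, 7.13 and 9.16 with Ota. The groups again did not overlap, but Ota replicate 3 lay close to the controls and stood apart from the other Ota arrays. The difference at 72 h was -1.58 ± 0.40 (SE; limma adjusted p = 0.00445). Without that array, singled out after its values were seen, it was -2.17 (limma adjusted p = 2.09e-05). Over all alternatives the difference at 72 h ranged from -2.47 to -1.15, with limma adjusted p up to 0.0217.

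The other probe sets of PAX8 gave the same picture with some exceptions. In the fit of all 19401 probe sets past the filter, 6 of 8 PAX8 probe sets were lower with Ota at 24 h and 6 of 8 at 72 h, where 37.8% and 31.6% of all fitted probe sets were lower. Their differences ran from -2.97 to -0.53 at 24 h, with a median of -2.52, and from -1.81 to -0.51 at 72 h, with a median of -1.48. The probe set 221990_at, the dimmest of the 8, missed the threshold at both times, with differences of -0.69 (limma adjusted p = 0.12) and -0.51 (adjusted p = 0.255). Probe set 213917_at behaved unlike the brightest ones. Its means were 7.86 ± 0.29 (SD, n = 3) in controls and 7.33 ± 0.55 with Ota at 24 h, a difference of -0.53 ± 0.37 (SE; limma adjusted p = 0.223), and it was lower at 72 h by -1.04 ± 0.37 (adjusted p = 0.0272). Within Ota cells it was also lower at 72 h than at 24 h, by -1.02 (limma adjusted p = 0.0303), as the 1 of 8 PAX8 probe sets called in that comparison, where 21.1% of fitted probe sets were lower. Identifiers ending in _x_at or _s_at, as 4 of the 8 have, mark probes that can match other transcripts. On all 8 probe sets Ota replicate 3 gave the highest of the 3 Ota values at 72 h.

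**Figure D2:**
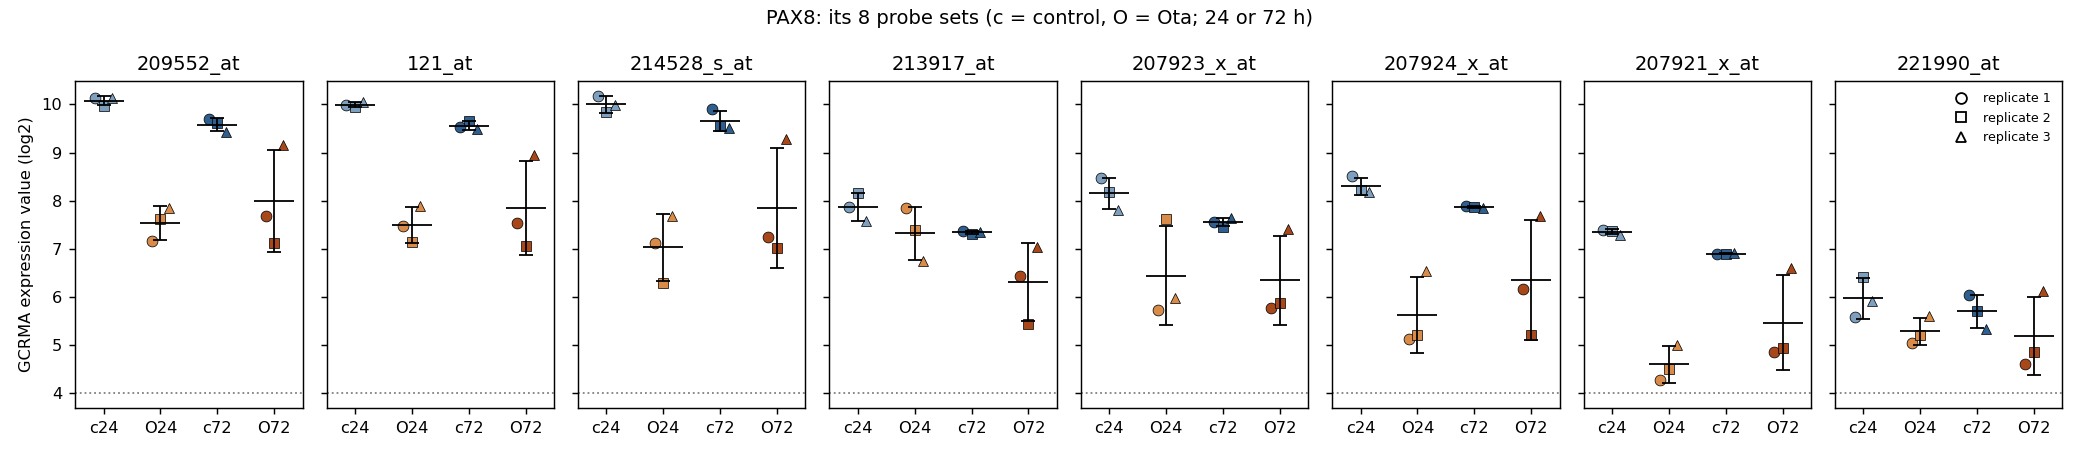
Log2 GCRMA values of the 8 PAX8 probe sets on each array, 1 panel a probe set in order of mean signal; symbols are replicates, the long bar is the group mean and the short bars 1 SD (n = 3). At 72 h the triangle of Ota replicate 3 lies above the other Ota arrays in every panel, for example at 9.16 against 7.69 and 7.13 in 209552_at.

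The order of the 4 groups for PAX8 was control 24 h (mean 10.08), control 72 h (9.58), Ota 72 h (7.99) and Ota 24 h (7.54). The step between the controls, -0.50 ± 0.40 from 24 h to 72 h, did not pass the threshold (limma adjusted p = 0.403). The step between the Ota groups, 0.45 ± 0.40, did not pass either (adjusted p = 0.348) as deposited, but was 1.38 with spike-in scaling (adjusted p = 0.0187). The effect of Ota changed by 0.95 ± 0.56 between the times (limma adjusted p = 0.181), with an interval of -0.28 to 2.17, so a smaller effect at 72 h was not shown at this precision. Of the 8 PAX8 probe sets 0 were called for this change, where 17.6% of all fitted probe sets were called lower and 28.3% higher. The change at 209552_at passed the threshold without Ota 72 h replicate 2, at 1.38 (limma adjusted p = 0.0346), and with spike-in scaling, at 1.91 (adjusted p = 0.0269).

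The RefSeq table of promoters (build GRCh38.p14), which gives 250 bases before and 50 after each start, matched 7 of the 9 genes. LHX1 and SLC3A1 had no entry there. A search of both strands covered a TATA box (TATAAA, in 11.5% of 35116 promoters), a CCAAT box (CCAAT, in 34.6%), a GC box (GGGCGG, in 45%) and an HNF4 element (CAAAGTCCA, in 0.384%). Windows are shown for 3 genes that fell, and for SLC4A4 only the most upstream and the most downstream of its windows. A match describes the letters only. PAX8 has 1 window, chr2:113278872-113279171 on the minus strand, with 62% G and C (median of all promoters 58.7%) and CCAAT in capitals at -240 and -82 from the start.
PAX8: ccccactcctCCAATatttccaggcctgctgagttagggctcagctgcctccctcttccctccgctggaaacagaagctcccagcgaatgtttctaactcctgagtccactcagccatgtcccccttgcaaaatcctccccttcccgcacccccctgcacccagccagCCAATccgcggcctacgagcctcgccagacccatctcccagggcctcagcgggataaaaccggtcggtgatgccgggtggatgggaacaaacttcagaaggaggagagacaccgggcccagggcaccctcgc
SLC4A4 has 5 windows from separate starts on the plus strand of chromosome 4. The most upstream of them, chr4:71062410-71062709, has 39.7% G and C and 0 of the motifs. The most downstream, chr4:71338770-71339069, has 47.3% G and C and the reverse complement of CCAAT, in capitals, at -153, -114 and -64. Of the windows between, which are not shown, 1 has 79% G and C and the GC box at -204 and -127. Another has 77.3% and the reverse complement of the GC box at -208, and the last has 48% and 0 of the motifs.
SLC4A4 upstream: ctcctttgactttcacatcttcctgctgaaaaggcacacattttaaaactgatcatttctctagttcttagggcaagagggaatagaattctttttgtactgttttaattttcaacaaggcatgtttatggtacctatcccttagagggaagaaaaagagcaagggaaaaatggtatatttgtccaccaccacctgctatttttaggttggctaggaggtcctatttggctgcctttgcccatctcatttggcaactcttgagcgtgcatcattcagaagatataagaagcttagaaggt
SLC4A4 downstream: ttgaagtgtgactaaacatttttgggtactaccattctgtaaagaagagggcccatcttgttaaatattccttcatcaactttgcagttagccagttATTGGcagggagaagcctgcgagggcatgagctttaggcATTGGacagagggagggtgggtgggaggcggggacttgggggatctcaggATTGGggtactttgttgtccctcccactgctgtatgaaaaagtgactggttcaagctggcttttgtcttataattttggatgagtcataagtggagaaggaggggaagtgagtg
DPP4 has 1 window, chr2:162074166-162074465 on the minus strand, with 75% G and C and the reverse complement of the GC box, in capitals, at -61 and -44.
DPP4: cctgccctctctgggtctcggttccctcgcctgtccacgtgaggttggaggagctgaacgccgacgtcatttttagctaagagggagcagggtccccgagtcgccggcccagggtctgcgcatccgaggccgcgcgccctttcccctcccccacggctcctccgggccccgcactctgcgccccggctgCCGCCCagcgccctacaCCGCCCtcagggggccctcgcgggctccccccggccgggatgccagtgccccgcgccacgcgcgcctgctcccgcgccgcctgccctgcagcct
The HNF4 element and the TATA box occurred in 0 windows of the 7 matched genes. PAX2 had 0 of the 4 motifs in either of its windows.

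LHX1 was faint. Its probe set 206230_at gave 3.72, 3.76 and 3.75 in controls and 4.73, 4.85 and 3.80 with Ota at 24 h. The Ota arrays lay above the controls, replicate 3 by less than 0.1. The 72 h arrays gave 3.77, 3.75 and 3.77 in controls and 4.57, 4.25 and 4.12 with Ota. Again all Ota arrays lay above all controls, and every control array lay under 4. Groups of a time did not overlap for 65.7% of all tested genes at 24 h and 73.7% at 72 h. LHX1 met the filter only through its Ota arrays, so it had to differ. Neither this separation nor the calls of Ota against control below support anything further. The difference at 24 h was 0.71 ± 0.24 (SE; limma adjusted p = 0.0209) as deposited but -1.14 after spike-in scaling, and it missed the threshold without Ota 24 h replicate 1 (0.58, adjusted p = 0.0841), Ota 24 h replicate 2 (0.52, adjusted p = 0.0741) or control 24 h replicate 1 (0.70, adjusted p = 0.0542). At 72 h the difference was 0.55 ± 0.24 (adjusted p = 0.0634), and -0.34 after spike-in scaling. That difference passed without Ota 24 h replicate 2 (limma adjusted p = 0.0369) or Ota 24 h replicate 3 (adjusted p = 0.00451), at the same 0.55, since those arrays enter only the shared estimate of spread. The LHX1 means of the Ota groups, 4.46 at 24 h and 4.31 at 72 h, did not differ past the threshold, and those of the controls, 3.75 and 3.76, lay under 4 and were not ordered.

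PAX2 lay at the bottom of the scale. Its probe sets gave 1.98 to 2.02 and 2.58 to 2.66 over the 12 arrays, and neither was tested.

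SLC4A4, the bicarbonate exit route of the proximal tubule cell, fell with Ota at both times and fell further by 72 h. At 24 h probe set 203908_at gave 11.91, 11.79 and 11.91 in controls and 9.65, 9.34 and 9.96 with Ota. Every Ota array lay well below every control, where the groups did not overlap for 65.7% of all tested genes. At 72 h it gave 12.33, 12.36 and 12.34 in controls and 8.71, 8.48 and 9.29 with Ota. Here the gap between the groups was wider, and the controls were nearly identical to each other. The differences were -2.22 ± 0.21 (SE) at 24 h, 4.66-fold lower (limma adjusted p = 3.18e-06), and -3.52 ± 0.21 at 72 h, 11.5-fold lower (adjusted p = 1.22e-07). The effect of Ota grew by -1.30 ± 0.30 from 24 h to 72 h (limma interaction, adjusted p = 0.0037). This growth missed the threshold when the 5 SLC4A4 probe sets were averaged (-0.98, adjusted p = 0.0794) or arrays were scaled to the spike-ins (-0.34, adjusted p = 0.564). The average includes 1554027_a_at, whose Ota arrays lay under 4 at both times and whose own change was -0.135.

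Of the 5 probe sets of SLC4A4, 4 met the filter in Ota and in control arrays alike. All 4 of these were lower with Ota at 24 h, by -2.67 to -2.20, and at 72 h, by -3.79 to -3.52 (limma, all probe sets fitted, adjusted p under 0.05 for each). Of all fitted probe sets 37.8% were lower at 24 h and 31.6% at 72 h. For the growth of the effect 1 of these 4 passed, with differences from -1.35 to -0.88, where 17.6% of all fitted probe sets were called lower. The fifth, 1554027_a_at, was the dimmest and exceeded 4 on the 6 control arrays only, so it had to differ between the groups and supports nothing further. Its values were 5.75, 4.92 and 6.17 in 24 h controls and 3.18, 3.19 and 2.95 in 24 h Ota cells. The 72 h Ota arrays gave 2.89, 2.72 and 2.77, so on this probe set the Ota arrays of both times lay under 4 and no fold is given. The SLC4A4 levels at 203908_at ran from control 72 h (mean 12.34) over control 24 h (11.87) and Ota 24 h (9.65) to Ota 72 h (8.83). The controls did not differ past the threshold (0.48 ± 0.21, limma adjusted p = 0.122). The Ota groups did as deposited (-0.82 ± 0.21, adjusted p = 0.00516), but the step was 0.10 with spike-in scaling and -0.46 over the mean of all 5 probe sets (adjusted p = 0.217).

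SLC3A1, the heavy chain of the cystine transporter, also fell at both times, and further by 72 h. At 24 h probe set 205799_s_at gave 8.44, 8.72 and 9.01 in controls and 7.61, 7.25 and 7.60 with Ota. At 72 h it gave 8.90, 9.50 and 8.93 in controls and 5.89, 5.90 and 5.53 with Ota. The groups did not overlap at either time, as for 65.7% of all tested genes at 24 h and 73.7% at 72 h. All 72 h Ota arrays lay below all 24 h Ota arrays, and these groups did not overlap for 62.1% of all tested genes. The difference was -1.24 ± 0.21 (SE) at 24 h, 2.36-fold lower (limma adjusted p = 0.000308), and -3.34 ± 0.21 at 72 h, 10.1-fold lower (adjusted p = 1.8e-07). The effect grew by -2.10 ± 0.30 (limma interaction, adjusted p = 0.000186). Its direction and call held in every alternative that tested SLC3A1, with differences from -2.38 to -1.14. Levels ran from control 72 h (mean 9.11) over control 24 h (8.72) and Ota 24 h (7.49) to Ota 72 h (5.77). The controls did not differ past the threshold (0.39 ± 0.21, adjusted p = 0.208), and the Ota groups did (-1.72 ± 0.21, limma adjusted p = 3.46e-05). These values rest on 1 of 3 probe sets. The other two, 205800_at and 239667_at, stayed at 2.53 to 2.58 and 3.28 to 3.45 on the 12 arrays, and without probe sets of the _s_at and _x_at kinds SLC3A1 had no test.

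DPP4, a brush-border peptidase that removes dipeptides from peptide hormones, was the only brush-border enzyme of the 4 with a gene-level test. Its probe set 203716_s_at gave 11.17, 11.62 and 10.98 in controls and 11.21, 11.73 and 11.32 with Ota at 24 h. These groups overlapped. At 72 h it gave 11.69, 11.71 and 11.57 in controls and 10.30, 10.61 and 11.13 with Ota. All 72 h Ota arrays lay below all 72 h controls, where the groups did not overlap for 73.7% of all tested genes. The difference at 24 h was 0.16 ± 0.23 (SE), with a 95% interval of -0.35 to 0.67 (limma adjusted p = 0.568), 0.72 after centring (adjusted p = 0.0305) and -1.69 after spike-in scaling (adjusted p = 8.44e-05). At 72 h DPP4 was lower by -0.98 ± 0.23, 1.97-fold (limma adjusted p = 0.00315). The change of the effect between the times was -1.14 ± 0.33 (limma interaction, adjusted p = 0.0133), and it was -0.18 with spike-in scaling (adjusted p = 0.743).

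The 3 probe sets of DPP4 ran together. At 24 h 0 of 3 passed the limma threshold (0 of 3 at an unadjusted p under 0.05), with differences from 0.16 to 0.31 and the lowest unadjusted p at 0.0851. At 72 h 3 of 3 were lower, from -1.38 to -0.93, where 31.6% of all fitted probe sets were lower. Between the times 3 of 3 changed, from -1.64 to -1.14, where 17.6% were called lower. The 3 probe sets measure 1 gene and are not separate results. Probe set 211478_s_at showed the widest shift, with means of 10.99 ± 0.13 (SD, n = 3) in 72 h controls and 9.62 ± 0.35 in 72 h Ota cells. DPP4 levels at 203716_s_at ran from control 72 h (mean 11.66) over Ota 24 h (11.42) and control 24 h (11.26) to Ota 72 h (10.68). No neighbours in that order differed past the threshold, and the last step had a limma adjusted p of 0.0502. Between the Ota groups the difference was -0.74 ± 0.23 (adjusted p = 0.0164) as deposited and 0.19 after spike-in scaling. It missed the threshold without Ota 24 h replicate 2 (-0.58, adjusted p = 0.0581) or Ota 72 h replicate 1 (-0.55, adjusted p = 0.0772).

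**Figure D3:**
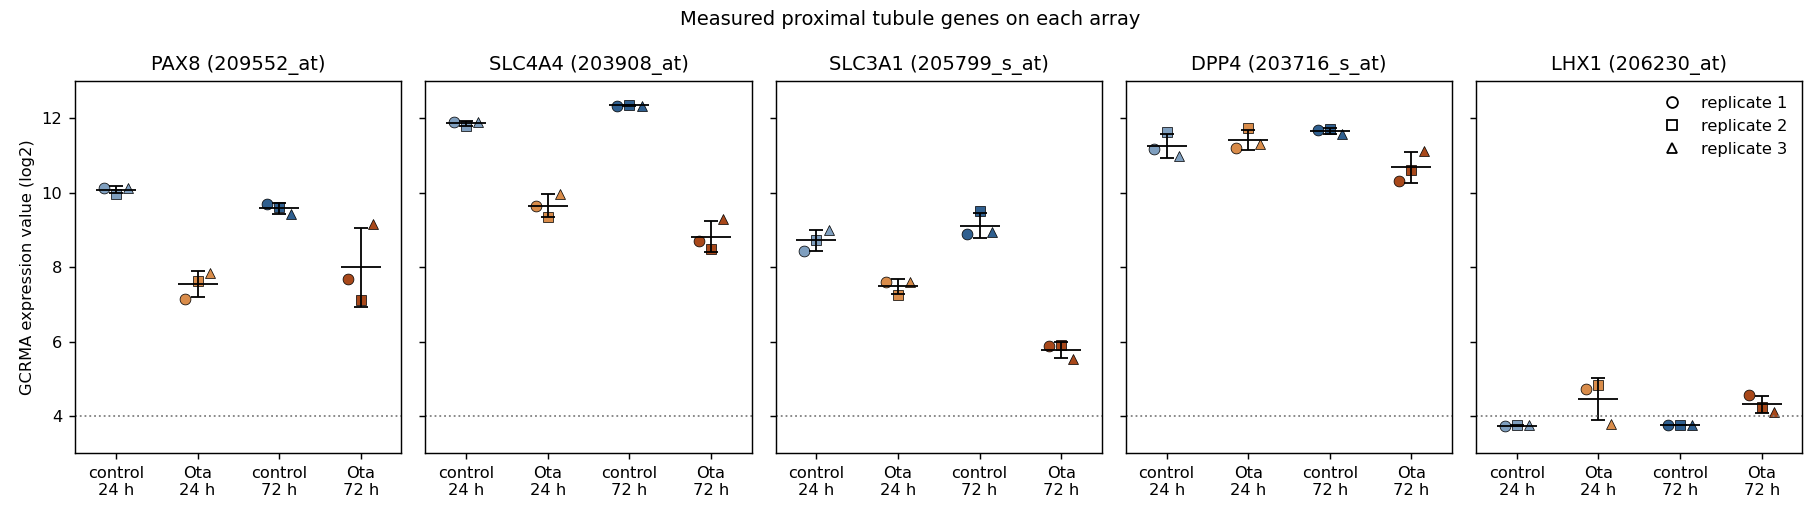
Log2 GCRMA value of the 5 tested genes on each array, at the probe set that stands for the gene; symbols are replicates, the long bar is the group mean, the short bars 1 SD (n = 3), and the dotted line a value of 4. SLC4A4 and SLC3A1 step down at 24 h and again at 72 h as deposited (SLC4A4 by 0.10 upward between the Ota groups with spike-in scaling), PAX8 is down at both times with Ota 72 h replicate 3 at 9.16, DPP4 is lower at 72 h, and LHX1 lies near 4.

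GGT1, which splits the gamma-glutamyl group from glutathione, gave 3.71, 5.54 and 4.06 in 24 h Ota cells at its 1 probe set, 233837_at. All other arrays lay between 3.58 and 3.65. Replicate 2 was thus high alone, and the 3 arrays did not agree on a level above 4. ANPEP, an aminopeptidase, gave 1.99 to 2.93 over its 3 probe sets and the 12 arrays. MME, the membrane peptidase neprilysin, gave 3.68, 2.50 and 3.60 in 72 h Ota cells at 203434_s_at and 2.25 to 2.44 on the other 9 arrays. Replicates 1 and 3 stood above the rest but under 4, and with no filter the 72 h difference was 0.99 (limma adjusted p = 0.0178). Its other probe set, 203435_s_at, gave 2.40 to 2.51 on all 12 arrays.

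At 24 h 3 of the 5 tested genes were lower with Ota (PAX8, SLC4A4 and SLC3A1), where 40.5% of all tested genes were lower. LHX1 was called higher as deposited (reversed by spike-in scaling). It met the filter only through its Ota arrays, so it had to differ and is not weighed against the 20.8% of all genes called higher. At 72 h 4 of 5 were lower (PAX8, SLC4A4, SLC3A1 and DPP4) against 35.2% of all genes, and 0 were higher against 24.8%. At an unadjusted limma p under 0.05, 1 of 5 was higher at 72 h (LHX1). That gene had to differ by the filter, so this count supports nothing further. For the change of the effect from 24 h to 72 h, 3 of 5 were lower (SLC4A4, SLC3A1 and DPP4) and 0 higher, against 19.9% and 29.6% of all genes. Over all genes this change was called lower for 2135 and higher for 3178 as deposited, 2856 and 2520 after centring, and 524 and 5908 after spike-in scaling. With spike-in scaling 1 of the 5 was called lower (SLC3A1) and 1 higher (PAX8).

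**Figure D4:**
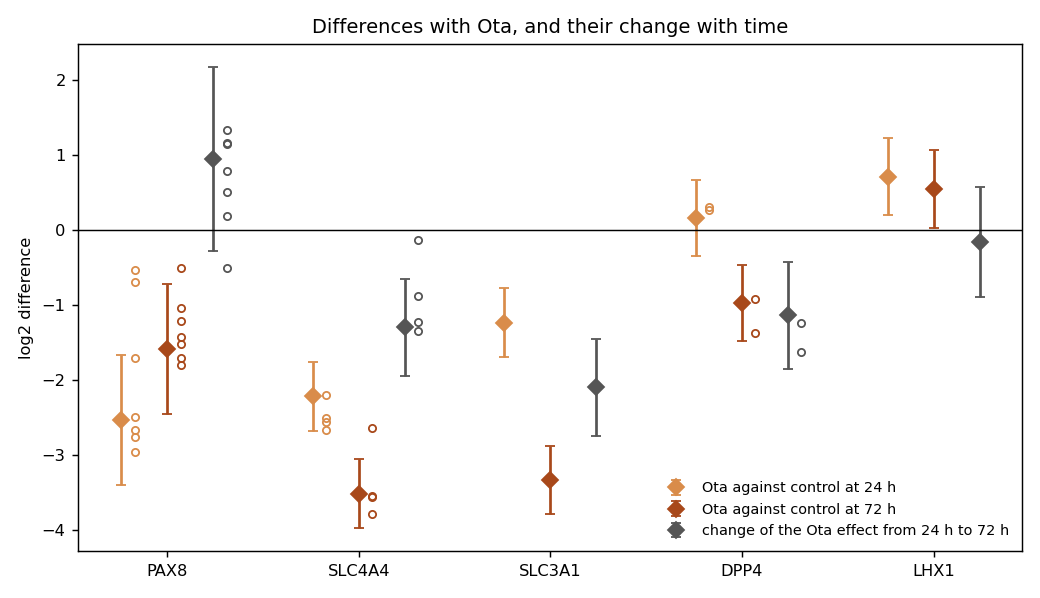
Log2 difference of Ota minus control at 24 h and 72 h, and the 72 h difference minus the 24 h one, for the 5 tested genes; diamonds are the gene-level limma estimates with 95% intervals and open circles the other probe sets of the gene. The intervals of PAX8, SLC4A4 and SLC3A1 lie below 0 at both times, and that of DPP4 spans 0 at 24 h and lies below 0 at 72 h; as deposited LHX1 lies above 0 at both times, and with spike-in scaling DPP4 at 24 h and LHX1 at both times turn negative.

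Time in culture was read from the control cells. Between control cells at 72 h and 24 h, 0 of 5 passed the limma threshold in either direction, where 13.3% of all genes were lower and 12.2% higher at 72 h. At an unadjusted p under 0.05 there was 1 (SLC4A4, 0.48 higher at 72 h), and the share of all genes at that cut is not given here. Between Ota cells at 72 h and 24 h 3 of 5 were lower as deposited (SLC4A4, SLC3A1 and DPP4), where 23.3% of all genes were lower and 37.0% higher. Over all genes this comparison called 2500 lower and 3966 higher as deposited, 3416 and 3001 after centring, and 707 and 7385 after spike-in scaling.

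The wider program of the proximal tubule was measured with lists of 137 other genes, of which 126 are in the annotation given and the other 11 were not analysed here. Of the 126 genes 75 stayed under 4 on all 12 arrays and 48 were tested. Among 32 proximal tubule transporters 23 stayed under 4 throughout. These include SLC7A9, the light chain that pairs with SLC3A1 (highest value 3.16), the phosphate transporter SLC34A1 (3.00), the glucose transporter SLC5A2 (2.86), the endocytic receptor LRP2 (3.18) and the water channel AQP1 (2.60), so several genes that define the proximal tubule were under 4 in every group. Of the 7 transporter genes tested, 3 were lower and 1 higher at 24 h, near the 40.5% and 20.8% of all genes. The median was -0.75 (-0.19 after centring) against -0.24 over all genes. The 24 h counts were 1 lower and 1 higher after quantile normalization, 1 and 2 after centring, and 7 and 0 after spike-in scaling. Most tested genes were lower after spike-in scaling too, and the counts of all genes under each scaling are given above. At 72 h 4 were lower and 1 higher, where 35.2% and 24.8% of all genes were, with a median of -1.11 against -0.11. SLCO4C1, an organic anion transporter, fell from 10.35 ± 0.37 (SD, n = 3) to 8.94 ± 0.26 at 24 h, by -1.41 ± 0.34 (SE; limma adjusted p = 0.00322), and by -2.27 at 72 h (adjusted p = 0.000112). SLC17A3, a phosphate and urate transporter, was lower at 72 h by -3.13 ± 0.59 (adjusted p = 0.000669), with an Ota mean of 3.31, under 4. DAB2, an adaptor of receptor endocytosis, was higher at 72 h by 2.30 ± 0.60 (adjusted p = 0.00551), and 1.41 after spike-in scaling. ABCB1, a drug efflux pump, was higher at 24 h by 0.88 ± 0.30 (adjusted p = 0.0235) as deposited and lower by -0.97 with spike-in scaling.

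Among 24 brush border and metabolic enzyme genes 15 stayed under 4, including the alkaline phosphatase ALPL (highest value 2.64). Of the 9 tested, 4 were lower and 1 higher at each time, near the shares of all genes given above, with a median of -0.39 at both times, which was 0.18 at 24 h after centring. After centring 3 were lower and 3 higher at each time, beside the counts of all genes after centring given above. MIOX, which opens the ring of myo-inositol, was lower at 72 h by -3.99 ± 0.32 (limma adjusted p = 1.11e-06), and its effect changed by -3.60 between the times (adjusted p = 9.51e-05). ENPEP, a brush-border aminopeptidase, was lower at 72 h by -1.54 ± 0.25 (adjusted p = 0.000249). PDZK1, a scaffold for brush-border transporters, was lower at 72 h by -1.43 ± 0.20 (adjusted p = 7.72e-05). Both had changes of effect past the threshold, -1.48 (limma adjusted p = 0.00525) and -1.38 (adjusted p = 0.00207), but with spike-in scaling these were -0.52 (adjusted p = 0.291) and -0.42 (adjusted p = 0.442) and no longer passed. GATM of creatine synthesis (-1.37, limma adjusted p = 0.00301) and the carbonic anhydrase CA2 (-1.35, adjusted p = 0.0116; 0.0605 after centring) were lower at 24 h. KHK, the fructose kinase, was called lower too, with means of 5.58 in controls and 3.52 with Ota. It met the filter only through its controls and had to differ. Its call, 1 of the 4 lower at 24 h, therefore supports nothing further. The effects on GATM and CA2 changed upward between the times, by 1.64 (limma adjusted p = 0.0111) and 2.28 (adjusted p = 0.00613).

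Of 14 renal transcription factor genes beside PAX8, PAX2 and LHX1, 9 stayed under 4 and 5 were tested, of which 4 were lower and 1 higher at 24 h, and 3 lower and 0 higher at 72 h, beside the shares of all genes given above. At 24 h 2 of the 5 were lower after quantile normalization, and 2 after centring, beside the counts of all genes under these scalings given above. IRX3, a homeobox factor of the nephron, fell most, by -3.45 ± 0.18 at 24 h (limma adjusted p = 3.51e-08) and by -4.46 ± 0.18 at 72 h (adjusted p = 8.04e-09). FOXD1 was lower at 24 h by -2.30 ± 0.37 (adjusted p = 0.000203) and TFCP2L1 at 72 h by -1.79 ± 0.30 (adjusted p = 0.000248). HNF4G was higher at 24 h by 1.52 ± 0.25 (limma adjusted p = 0.000278), -0.34 with spike-in scaling, and lower at 72 h by -0.83 ± 0.25 (adjusted p = 0.0137). Among the 14 relatives of SLC4A4 and partners of SLC3A1, 7 stayed under 4 and 7 were tested. At 24 h 1 was higher and 1 lower (median -0.18, and 0.38 after centring), where 20.8% and 40.5% of all genes were. At 72 h 1 was higher and 3 lower (median -0.42), where 24.8% and 35.2% of all genes were. SLC7A11, the cystine-glutamate exchanger, was lower at 72 h by -3.66 ± 0.22 (adjusted p = 1.22e-07), with a change between the times of -3.34 (adjusted p = 1.43e-05). Its mean rose in both arms, from 6.30 to 11.00 in controls and from 5.98 to 7.35 with Ota, between 24 h and 72 h. Its heavy chain SLC3A2, the paralogue of SLC3A1, was lower at 72 h by -1.56 ± 0.19 (limma adjusted p = 2.32e-05), and at 24 h it was 0.65 higher as deposited (adjusted p = 0.01) and -1.20 with spike-in scaling. SLC3A2 also rose with time, from 7.70 to 10.48 in controls and from 8.35 to 8.93 with Ota. Of the other members of the SLC4 family, SLC4A11 was lower at both times (-0.95, adjusted p = 0.0242, and -1.68, adjusted p = 0.000817). SLC4A7 was higher at 72 h by 0.81 (adjusted p = 0.0112) as deposited and -0.08 with spike-in scaling.

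**Figure D5:**
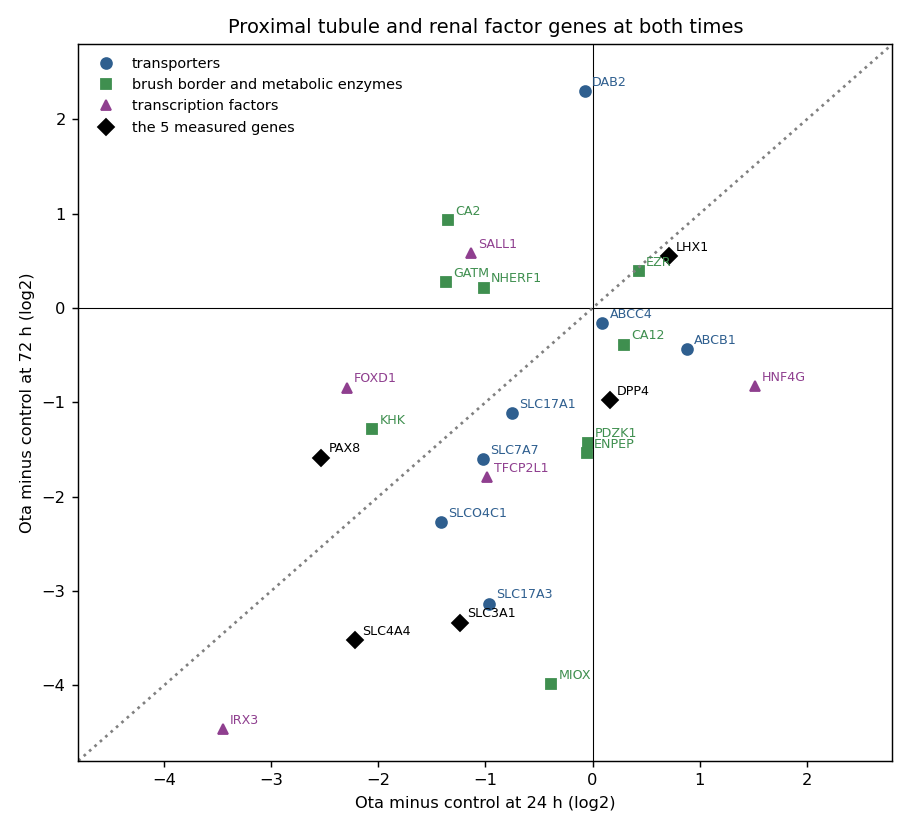
Log2 difference of Ota minus control at 24 h (horizontal axis) and 72 h (vertical axis) for the tested genes of the transporter, enzyme and transcription factor lists and the 5 tested genes of the 9, 1 point a gene; the dotted line marks equal differences. As deposited, IRX3, SLC4A4, SLC3A1, MIOX and SLC17A3 lie at -3 or lower at 72 h, and DAB2 lies highest at 2.30; both axes shift by -1.85 and -0.89 with spike-in scaling.

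For each tested gene the closest patterns over the 12 arrays are given by Pearson's r among all tested genes, as a description over arrays that fall into 4 groups. PAX8 was most like SPHK1 (r = 0.982), LAD1 (0.969) and JPT2 (0.968). SLC4A4 was most like HOGA1 (r = 0.988), DOCK11 (0.988) and PTPRK (0.985). SLC3A1 was most like COX20 (r = 0.989), COQ5 (0.985) and ANXA2R-AS1 (0.98), and COX20 differed by -1.24 at 24 h and -3.40 at 72 h. DPP4 was most like HM13 (r = 0.928), CCDC18-AS1 (0.896) and IFITM2 (0.895), and LHX1 like C8orf44 (0.93), ORC2 (0.927) and TAGLN (0.903). Among the tested genes themselves r was 0.934 between SLC4A4 and SLC3A1, 0.864 between PAX8 and SLC4A4, and 0.41 between PAX8 and DPP4.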

How the data were processed

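Expression was measured on 12 Affymetrix arrays of HK-2 cells. The authors deposited log2 values per probe set, made with GCRMA per the submitters' processing notes (no version); which arrays were normalized together is not given in the sources used here. Of 54675 probe sets 41097 carry 1 symbol, 1801 several and 11777 none. No further normalization was applied. With limma 3.58.1 (R 4.3.3), 4 group means were estimated for the 10729 genes with a probe set over 4 on at least 3 arrays (residual degrees of freedom 8, prior 3.56), with two-sided tests and Benjamini-Hochberg adjustment over all genes at 0.05. Because all groups share 1 estimate of spread, the median standard error was 0.21. Array-wide control measures were compared by an exact permutation test. The model was tested on simulated data. Each gene of the 9 was reported with all its probe sets; from each wider list, up to 3 genes with the largest difference past the threshold in each Ota comparison and the largest in the other direction were eligible to be named, from each marker list up to 2, with the 3 closest patterns per tested gene. Genes named as under 4 on all arrays, KRT7, KRT8, EPCAM, VIM and ACTA2 were chosen after their values were seen. The genes and lists were chosen with earlier results of these data known. Alternatives covered scaling between arrays, the filter, the choice of probe set, the variance model, the arrays in the fit, a replicate block, the threshold and each array left out. Promoter sequences are from RefSeq (GRCh38.p14); no build is named for the array, so no gene positions are given.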

Additional observations from a re-analysis of the deposited data

Results flagged for a closer look

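As deposited, the effect of Ota differed between the times for SLC4A4, SLC3A1 and DPP4, by the test of the difference itself. From 24 h to 72 h the log2 difference between Ota and control changed by -1.30 for SLC4A4 (from -2.22 to -3.52; limma adjusted p = 0.0037), by -2.10 for SLC3A1 (from -1.24 to -3.34; adjusted p = 0.000186) and by -1.14 for DPP4 (from 0.16 to -0.98; adjusted p = 0.0133). At 72 h all 3 Ota arrays lay below all 3 controls for each of these genes, where the groups did not overlap for 73.7% of all tested genes. With scaling to the spike-ins the change was -1.14 for SLC3A1 (limma adjusted p = 0.0238). It was -0.34 for SLC4A4 (adjusted p = 0.564) and -0.18 for DPP4 (adjusted p = 0.743), and neither passed. The SLC4A4 change also missed the threshold over the mean of its probe sets. Of its 4 probe sets that met the filter in both arms 1 passed, where 17.6% of all fitted probe sets were called lower. The part of the array-wide shift in these changes was not tested.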

How the results depend on the processing

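Of 25 values (5 genes in 5 comparisons) 11 kept direction and call in every alternative run, among them the falls of PAX8, SLC4A4 and SLC3A1 at both times and of DPP4 at 72 h. Of 585 values over all alternatives 549 kept both, 14 lost the threshold, 11 gained it and 11 changed sign. Scaling to the poly-A spike-ins turned DPP4 to -1.69 at 24 h and, between Ota cells at 72 h and 24 h, to 0.19, SLC4A4 there to 0.10, and LHX1 to -1.14 at 24 h, -0.34 at 72 h, 0.80 for the change between the times, 0.78 between Ota cells and -0.019 between control cells. Without each replicate in turn LHX1 ranged from -0.493 to 0.031 for the change and from -0.476 to 0.048 between Ota cells, positive without Ota 24 h replicate 2, and PAX8 between Ota cells ranged from -0.136 to 0.882, negative without Ota 72 h replicate 3. Of these, LHX1 between Ota cells was called without Ota 24 h replicate 3 (limma adjusted p = 0.0183). Fitted on the arrays of the comparison alone, 2 genes passed between control cells at 72 h and 24 h (PAX8 lower, SLC4A4 higher) against 0 in the fit of all arrays, LHX1 at 24 h missed the threshold (adjusted p = 0.0735) and DPP4 between Ota cells did too (adjusted p = 0.0556). Over all genes, that control comparison called 2739, 4309 on its own arrays, 1280 after spike-in scaling and 1547 at an adjusted p under 0.01, and Ota against control at 24 h called 6579 and 10187 after spike-in scaling; the cause was not tested.

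Arrays of equal replicate number correlated in their deviations from the group means at 0.125, 0.231 and 0.271 at 24 h and -0.0522, 0.139 and 0.192 at 72 h, so the numbers were not taken to pair them. In 5 of 6 cases an array's best match was its own number. With the replicate block 4 genes passed at 24 h, 4 at 72 h and 3 for the change, as without it, and no call of the 9 genes changed. With 3 arrays a group a difference near the median standard error of 0.21 cannot be resolved. Where a group mean lies under 4, as for LHX1 in controls and for SLC17A3, KHK, ECE2 and LDB1 with Ota, the size of the difference is uncertain.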

Other observations

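The brush-border enzymes have several relatives on the array. Of 26 peptidase and transferase relatives in the annotation given, 10 stayed under 4 on all arrays and 16 were tested. At 24 h 7 were higher and 4 lower with Ota as deposited, where 20.8% of all genes were higher and 40.5% lower, with a median difference of 0.39 against -0.24 over all genes. Centring moves every gene by 0.56 at 24 h, and 11 were then higher and 1 lower. Spike-in scaling moves every gene by -1.85, and 16 of 16 were then lower. Most tested genes were lower under that scaling too, so it does not set these relatives apart. Counts of all genes under both scalings are given above. At 72 h 7 were higher and 6 lower, where 24.8% and 35.2% of all genes were. DPP7, a lysosomal dipeptidyl peptidase, was 0.94 ± 0.23 (SE) higher at 24 h (limma adjusted p = 0.0034), -0.91 with spike-in scaling, and lower at 72 h by -1.55 ± 0.23 (adjusted p = 9.83e-05). Its change between the times was -2.49 (adjusted p = 0.000103), the same direction as DPP4. DPP8, a cytosolic relative, was 1.26 ± 0.16 higher at 72 h (adjusted p = 3.65e-05). ERAP1, an aminopeptidase of the endoplasmic reticulum, was lower at 72 h by -2.88 ± 0.17 (adjusted p = 1.13e-07), with 2 of its 3 probe sets of that sign. ECE2, a relative of MME, was lower at 24 h by -2.21 ± 0.34 (adjusted p = 0.000147), with an Ota mean of 3.34, under 4. GGTLC1, a light-chain relative of GGT1, went from 7.86 in 72 h controls to 5.58 with Ota (-2.28 ± 0.25, adjusted p = 1.21e-05) at 1 probe set whose identifier marks cross-hybridization.

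Of 16 paralogues and cofactors of the PAX and LHX genes, 11 stayed under 4 and 4 were tested. LDB1, the cofactor that binds LIM-homeodomain factors, had means of 5.06 and 4.97 in controls and 3.05 and 2.92 with Ota, at 24 h and 72 h. It met the filter only through its controls, so it had to differ and its calls support nothing further. PAX6 was 0.94 higher at 24 h as deposited (adjusted p = 0.00152) with 1 of its 2 probe sets of that sign, and -0.91 with spike-in scaling. Among the epithelial markers 3 of 9 were lower and 1 higher at 24 h, where 40.5% and 20.8% of all genes were. After centring 2 were lower and 3 higher, beside the counts of all genes after centring given above. At 72 h 6 of 9 were lower and 0 higher, where 35.2% and 24.8% of all genes were. The 6 include VIM (-1.13, limma adjusted p = 0.000372), whose fall is not a loss of an epithelial marker. The kidney cadherin CDH16 was lower at 72 h by -3.65 ± 0.22 (limma adjusted p = 1.22e-07) and CDH1 by -3.18 ± 0.28 (adjusted p = 1.95e-06), with changes between the times of -2.98 and -2.90. EPCAM (-0.10, limma adjusted p = 0.652), KRT18 (-0.48, adjusted p = 0.0872) and KRT8 (0.60, adjusted p = 0.147) were not called at 72 h. The keratins KRT19 and KRT18 were lower at 24 h by -2.42 (adjusted p = 9.15e-05) and -1.45 (adjusted p = 0.000176). Of the other keratins listed, KRT7 was 0.99 higher at 24 h (limma adjusted p = 0.00997), -0.86 with spike-in scaling, and KRT8 differed by 0.13 (adjusted p = 0.757).

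Markers of other tubule segments and of fibroblasts moved too. CLDN16 of the thick ascending limb was lower at 72 h by -2.91 ± 0.53 (limma adjusted p = 0.000517). The collecting duct genes went apart: SCNN1A was lower at both times (-1.32 and -2.12), with 1 of its 2 probe sets of that sign, and AQP3 was higher at 72 h by 2.02 ± 0.26 (adjusted p = 3.5e-05). The fibroblast genes went apart as well. At 24 h 2 of 4 were higher and 1 lower, where 20.8% and 40.5% of all genes were. At 72 h 1 was higher and 1 lower, where 24.8% and 35.2% of all genes were. COL1A1 was lower at 24 h by -1.94 ± 0.36 (limma adjusted p = 0.000602), with 1 of its 2 probe sets of that sign. LUM was higher at both times, by 0.69 (adjusted p = 0.0177; -1.16 with spike-in scaling) and 1.55 ± 0.22 (adjusted p = 8.49e-05). ACTA2 was 0.80 higher at 24 h (limma adjusted p = 0.00253; -1.05 with spike-in scaling) and lower at 72 h by -0.86 (adjusted p = 0.00156).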
